A study of Caenorhabditis elegans with 16 samples.

Results

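The loci described here are the long noncoding RNA and antisense RNA genes of *Caenorhabditis elegans* that gave countable reads in whole adult worms. They were taken from the deposited count table as the genes whose biotype is lncRNA or antisense_RNA and that had at least 10 counts in at least 4 of the 16 libraries. The rule gave 56 loci out of 47029 genes in the table, of which 45 are lncRNA and 11 are antisense_RNA genes. Each was set beside the protein-coding gene that overlaps it most or, where none does, lies nearest to it, called its partner. The rule used the annotation and the counts of all libraries together, not a comparison between groups. No locus passed it through the libraries of 1 group alone, but F20G2.9 met it with 3 sulforaphane libraries and 1 control library. linc-135 and linc-139 met it with 0 control libraries, and linc-123 and linc-60 with 0 combination libraries. Other loci with few counts also had a treated group with no library at 10 counts.

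The 4 groups of 4 libraries were worms given a curcumin phytosome (curcumin complexed with phospholipid) at 5 mg/mL, worms given sulforaphane at 0.625 mg/mL, worms given both at those concentrations, called the combination, and an untreated control. All were strain SS104, which carries the temperature-sensitive sterile allele glp-4(bn2). The worms were kept at 15 °C, shifted to 24 °C at the L2/L3 larval stage, put on plates whose *Escherichia coli* OP50 lawn carried the compounds as L4 larvae, and collected on day 3 of adulthood. The design text calls the 4 samples of a group independent biological replicates, and no vehicle is named for the control. At the restrictive temperature glp-4(bn2) adults hold few germ cells, which limits these libraries as a source of germline transcripts.

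Long noncoding RNAs are transcripts that are often spliced and polyadenylated like messenger RNAs but carry no long reading frame. Many are made at low levels, and in *C. elegans* only a few have a known function. Antisense RNAs are transcribed from the opposite strand of another gene, and paired sense and antisense strands can become substrates for Dicer and the RNA interference machinery, which is active in this animal. The name linc stands for long intergenic noncoding RNA, although linc-123, linc-76, linc-56 and linc-72 overlap the span of a coding gene in this annotation, and the loci named anr lie antisense to a coding gene.

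Total counts ran from 14315538 to 19964755 per library. Markers of intestine, body-wall muscle, pharynx and neurons were detected in every group. The germline and oocyte markers summed to 174 to 249 counts per 1000000 (CPM) under curcumin, 202 to 228 under sulforaphane, 178 to 226 under the combination and 219 to 263 in the control. Sperm markers summed to 5.51 to 10.8 CPM under curcumin, 4.74 to 6.94 under sulforaphane and 6.16 to 9.2 under the combination. In the control they summed to 7.86 to 11.1, above every sulforaphane library. The neuronal markers summed to 397 to 427 CPM under the combination against 335 to 354 in the control, and the body-wall muscle markers to 939.6 to 1381 against 789 to 955. Most of these sums came from 1 gene each, snb-1 (363 to 393 CPM against 302 to 324) and unc-54 (859 to 1304 against 727 to 882). Of the other markers, unc-119 lay above the control (13.2 to 15.8 against 11.4 to 13), while rab-3 and myo-3 overlapped it, as did unc-54. The part these markers play in the results below was not tested, and in whole worms fewer cells of a type and less RNA per cell cannot be told apart. Of the hypodermal markers, col-19 was detected and the larval collagen dpy-7 had 7 counts in all libraries together.

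The 56 loci were part of the 294 lncRNA and antisense_RNA genes annotated. A further 168 had reads but fell below the rule, and 70 had 0 counts in all 16 libraries. Of the members, 25 had at least 10 counts in every library. Just inside the rule were linc-24, F20G2.9 and anr-23, with 124, 113 and 94 counts in all and 10 or more in 4 libraries. Just outside it were linc-97, linc-50 and linc-102, with 108, 104 and 103 counts in all and 10 or more in 3 libraries. The mean count per library was under 20 for 30 members, 20 to under 100 for 17 and 100 or more for 9, with a median of 17.8.

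The loci were short. The median exonic length was 508.5 bases, with a range of 157 to 4071, against 1382 for the 13861 protein-coding genes that met the same count rule. In the Ensembl 115 annotation of WBcel235, where all 56 have the span and strand of the deposited table, 14 have a single exon and Y9D1A.1 has the most, 12. Chromosome II holds 14 of them, chromosomes III, V and X hold 9 each, chromosome I holds 8 and chromosome IV holds 7. The X chromosome thus carries 16.1% of the loci, against 14.5% of the protein-coding genes under the same rule.

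Overlap with a coding gene was the exception. The span of 15 loci overlaps that of the partner, 13 on the opposite strand and 2 on the same strand, and 8 of the 15 lie wholly inside it. Where the partner's exons are known in Ensembl 115 with the same span, which holds for 12 of the 15, exons of 10 loci meet exons of the partner. The other 41 lie 33 to 6645 bases from the partner, with a median of 847, and 23 of them lie within 1000 bases. Their partner lies downstream on the same strand in 16 cases and upstream in 5, the pair is transcribed head to head in 11 and tail to tail in 9. Whether the counting used strand is not given in the sources used here, so reads from overlapping genes on opposite strands cannot be told apart, and values of the 13 antisense pairs are uncertain to that extent. For the 2 same-strand pairs, strand could not separate the reads in any case. In all, 9 loci also overlap annotated genes that are not protein-coding. The locus anr-35 overlaps the pseudogene F37H8.2, which had 984 counts, and those under the other loci had 0 to 5 counts per locus.

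Per length, the loci were expressed below coding genes. In the authors' FPKM, which scale by gene length and library depth, the members' means over 16 libraries had a median of 2.32 FPKM and ran from 0.275 for anr-51 to 219 for lep-5. The protein-coding genes under the same rule had a median of 8 FPKM. Of the 56 loci, 46 averaged at least 1 FPKM and 8 at least 10. lep-5 stood far above the rest, followed by linc-15 at 26.7, linc-8 at 21.2, ZK822.8 at 19.5, linc-21 at 19.3, C15H11.16 at 16.2 and H09G03.1 at 13.2 FPKM.

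**Figure D1:**
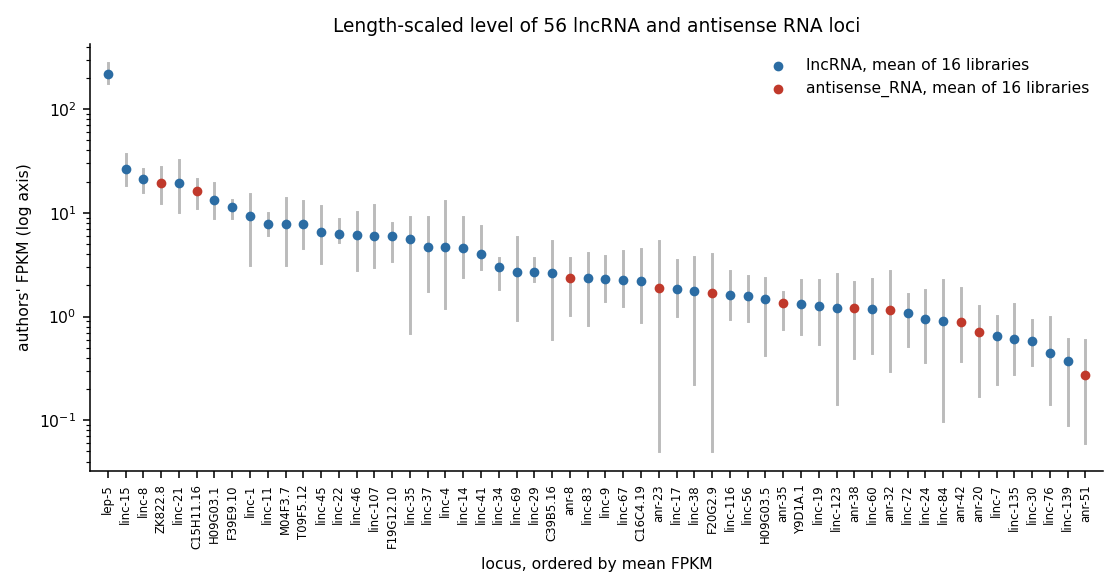
Authors' FPKM on a log axis for the 56 loci, ordered by the mean over 16 libraries (points, blue for lncRNA and red for antisense_RNA); grey lines run from the lowest to the highest library, and for anr-23 and F20G2.9, which had a library at 0, they are drawn down to 0.05 FPKM. lep-5 stands alone at a mean of 219 FPKM, and most other loci lie between 0.5 and 10.

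Together the 56 loci took 0.0307% ± 0.00194 of the counts under curcumin, 0.0258% ± 0.000981 under sulforaphane, 0.0298% ± 0.00288 under the combination and 0.0289% ± 0.00101 in the control (SD, n = 4 each). The sulforaphane libraries, at 0.0247% to 0.0269%, lay below all control libraries, at 0.0279% to 0.0303%. lep-5 alone made up 38.5% to 47% of the members' counts in a library, so this share leans on 1 gene. Without lep-5 the share was 0.0141% to 0.0161% under sulforaphane and 0.0153% to 0.0173% in the control, and these ranges overlapped.

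Few of the loci passed the test. In edgeR's quasi-likelihood test at an adjusted p under 0.05, which called 14.6% of the 14328 tested genes under curcumin, 5 of the 56 loci were called (8.93%), 3 higher and 2 lower, against 6.87% of all tested genes higher and 7.71% lower. Under sulforaphane, where 6.71% of all tested genes were called, 1 locus was called (1.79%), and it was higher, as were 4.33% of all tested genes, with 2.37% lower. Under the combination, where 23.1% of all tested genes were called, 4 loci were called (7.14%), 2 higher and 2 lower, against 12.1% of all tested genes higher and 11% lower. All 3 comparisons use the same control libraries. In all, 7 loci were called in some comparison with control and 49 in none. By biotype, 6 of these 7 are lncRNA genes and C15H11.16 is the antisense_RNA gene among them.

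The calls were also read by depth. The median standard error of a member's log2 change was 0.372 under curcumin, 0.367 under sulforaphane and 0.373 under the combination, against 0.135 over all tested genes in each comparison. Among all tested genes with a mean under 20 counts, no log2 change smaller in size than 0.995 was called under curcumin, 1.12 under sulforaphane or 0.932 under the combination. In that range 0 of 30 members were called under curcumin, 0 under sulforaphane and 1 under the combination by edgeR, against 3.91%, 1.72% and 8.72% of all tested genes. Among genes with a mean of 20 to under 100 counts, 2, 0 and 2 of 17 members were called, against 7.65%, 3.8% and 15%. Among genes with a mean of 100 counts or more, 3, 1 and 1 of 9 members were called, against 20%, 9.12% and 29.9%. At an unadjusted p under 0.05, edgeR gave 6 of 56 members under curcumin, 7 under sulforaphane and 13 under the combination, against 24.3%, 18.4% and 33.2% of all tested genes.

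The members' median log2 change was 0.111 under curcumin, -0.113 under sulforaphane and 0.203 under the combination, against -0.0128, -0.0203 and -0.0212 over all tested genes. It was above 0 for 35 of 56 loci under curcumin, 24 under sulforaphane and 37 under the combination. The 11 antisense_RNA loci had medians of -0.251, 0.0947 and -0.16, and the 45 lncRNA loci 0.159, -0.14 and 0.219. Libraries of the treated group and the control did not overlap for 5 members under curcumin, 5 under sulforaphane and 4 under the combination, against 16.8%, 13.8% and 22.8% of all tested genes. The 5 under curcumin include linc-135 and linc-139, which met the count rule with 0 control libraries. The 4 under the combination include linc-123, which met it with 0 combination libraries. For these loci the rule itself favoured such a gap, so no conclusion is drawn from it.

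**Figure D2:**
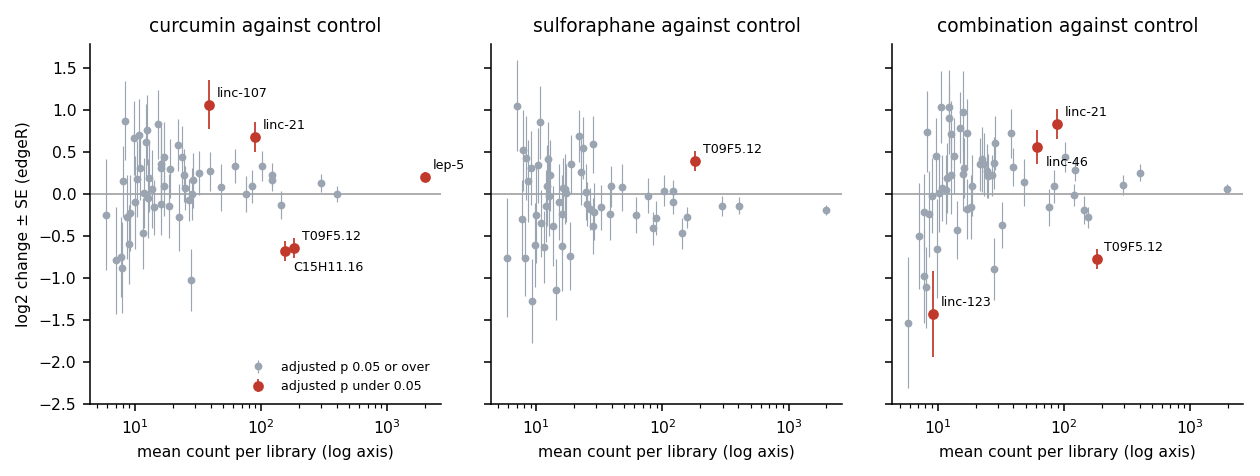
edgeR log2 change against control (points, with bars of 1 standard error) over the mean count per library on a log axis, for the 56 loci in each comparison; red points had an adjusted p under 0.05. The spread of the changes narrows as counts grow, and the 5, 1 and 4 called loci are named.

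T09F5.12 was the lncRNA called in all 3 comparisons. It is an unnamed 3-exon gene (NCBI Gene 13216835, chromosome V:15164743-15166318, minus strand, WBcel235). It fell under curcumin to 8.5, 8.34, 8.12 and 8.85 CPM and under the combination to 7.92, 6.79, 7.65 and 8.48 CPM, against 12.3, 12.8, 16.2 and 11.3 CPM in the control. Under sulforaphane it had 16.5, 14.7, 19.4 and 18.2 CPM. Every curcumin and combination library lay below every control library, while the sulforaphane libraries overlapped the highest control.

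The log2 change of T09F5.12 was -0.64 (SE 0.12, adjusted p 0.00039 in edgeR) under curcumin, 0.39 (SE 0.12, adjusted p 0.0414) under sulforaphane and -0.77 (SE 0.12, adjusted p 2.88e-05) under the combination. The rise under sulforaphane was lost without any 1 of 7 libraries (control 1, 2 or 4, curcumin 2, sulforaphane 1, 3 or 4; adjusted p 0.0521 to 0.16) and, with library size alone as the scaling, also missed the threshold. The combination differed from the sum of both separate changes by -0.52 (SE 0.17), which was not called (adjusted p 0.217). Its partner srz-11, a gene of a chemoreceptor family, lies 224 bases away on the opposite strand, tail to tail, and had 14 counts in all libraries together, too few to test.

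C15H11.16 is an antisense RNA gene (13216539, V:14409094-14409889, minus strand) that lies wholly inside gnrr-2 (182647, V:14409074-14412003, plus strand), which encodes a receptor related to vertebrate gonadotropin-releasing hormone receptors. Of its 606 exonic bases, 319 lie in exons of gnrr-2. It had 6.93, 6.85, 8.24 and 8.27 CPM under curcumin, 8.06, 11.8, 10.4 and 9.49 under sulforaphane and 9.55, 11, 9.95 and 9.38 under the combination, against 10.9, 13, 12.7 and 11.9 in the control. The curcumin libraries did not overlap the control, and the sulforaphane library at 8.06 CPM lay inside their range. Only the highest sulforaphane library (11.8) and the highest combination library (11) reached the control range, and the others lay below every control.

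C15H11.16 fell under curcumin by 0.68 on the log2 scale (SE 0.12, adjusted p 0.00023 in edgeR). Its log2 change was -0.28 under sulforaphane (SE 0.12, adjusted p 0.196) and -0.28 under the combination (SE 0.12, adjusted p 0.0975), neither of them called. gnrr-2 rose under curcumin (log2 change 0.35, SE 0.11, adjusted p 0.0407) and under the combination (0.70, SE 0.11, adjusted p 3.35e-05), and its log2 change under sulforaphane was 0.11 (SE 0.12, adjusted p 0.673). It averaged 13.9 ± 0.954 CPM under curcumin, 11.8 ± 1.42 under sulforaphane and 17.7 ± 1.54 under the combination, against 10.9 ± 1.52 in the control (SD, n = 4 each). The curcumin call of gnrr-2 was lost without any 1 of control 1 or 4 and curcumin 1, 2 or 4 (adjusted p 0.0617 to 0.138).

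Within a library, the ratio of both genes' counts does not depend on the scaling between libraries. The log2 ratio of C15H11.16 to gnrr-2, with 0.5 added to each count, was -1.04, -0.98, -0.62 and -0.84 under curcumin and -0.78, -0.85, -0.75 and -0.93 under the combination. It was -0.50, -0.23, -0.05 and -0.23 under sulforaphane, against 0.21, 0.03, 0.13 and 0.25 in the control. All 12 treated libraries lay below all 4 controls. The pair was taken up because C15H11.16 was called under curcumin in these same libraries. Its ratio is therefore a description of those counts and not separate support for the call. The mean difference from control was -1.03 (SE 0.11) under curcumin, -0.41 (SE 0.10) under sulforaphane and -0.98 (SE 0.06) under the combination. In a two-sided exact permutation test each gave p = 0.0286, the smallest that 4 against 4 libraries can give (2 of 70 arrangements). Adjusted over the 7 pairs of named loci tested in each comparison, the exact p was 0.2, 0.2 and 0.1, and none of the 3 passed. At this floor a pair could pass 0.05 only if most of the 7 pairs reached the floor together. The adjusted values therefore cannot decide whether the ratio changed. Since strand use in counting is unknown, the ratio holds for the deposited counts, and reads from the shared exonic stretch cannot be assigned to a strand here.

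**Figure D3:**
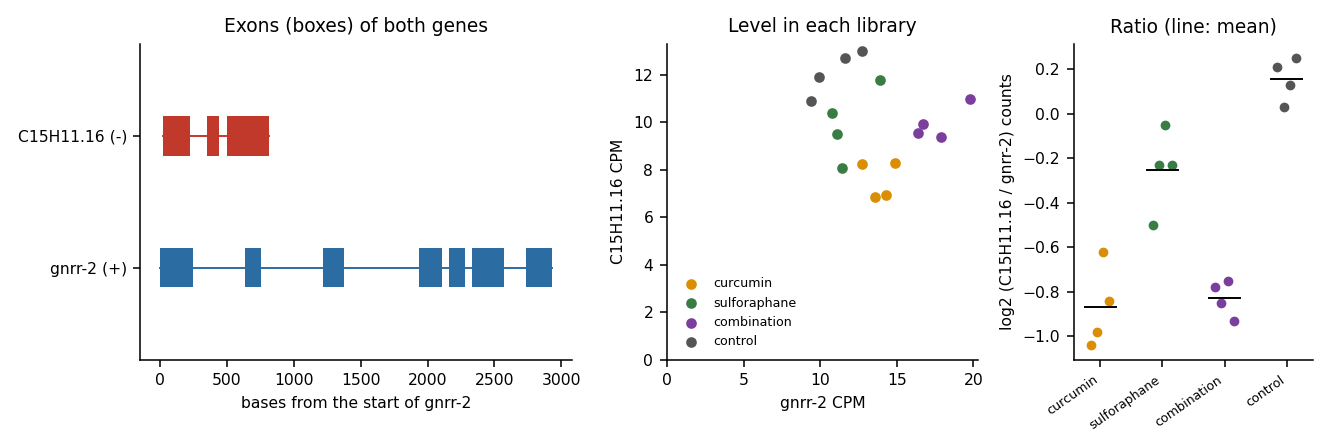
Left, exons of gnrr-2 and of the antisense locus C15H11.16 in bases from the start of gnrr-2; middle, CPM of both genes in each library; right, log2 ratio of their counts in each library with the group mean as a line. The ratio means are -0.87 under curcumin, -0.25 under sulforaphane, -0.83 under the combination and 0.15 in the control, with no treated library in the control range.

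linc-21 is a 3-exon lincRNA gene (24104542, IV:4242086-4242466, minus strand) among the 5 most abundant members per length. It had 8.39, 7.66, 6.4 and 5.06 CPM under curcumin and 7.3, 7.27, 9.34 and 6.6 under the combination, against 4.55, 2.93, 5.43 and 4.21 in the control. Every combination library lay above the control, while the lowest curcumin library fell inside the control range. It rose under curcumin (log2 change 0.68, SE 0.18, adjusted p 0.011 in edgeR) and under the combination (0.83, SE 0.18, adjusted p 0.00132). Under sulforaphane it had 2.9, 3.63, 3.73 and 3.77 CPM, a log2 change of -0.29 (SE 0.20, adjusted p 0.486). The curcumin call was lost without control 2 or curcumin 1 (adjusted p 0.0556 to 0.0576).

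The partner of linc-21 is col-34, a cuticle collagen gene 1078 bases away on the same strand. col-34 was not called, with log2 changes of 0.27, 0.13 and 0.36 for curcumin, sulforaphane and the combination (edgeR adjusted p 0.433, 0.788 and 0.193). The log2 ratio of linc-21 to col-34 differed from control by 0.42 (SE 0.32) under curcumin and 0.54 (SE 0.39) under the combination, both with an exact permutation p of 0.257. A second lincRNA, linc-41, lies on the same side of col-34, 1779 bases away, and its log2 changes were 0.25, -0.16 and -0.37, none of them called. These neighbouring lincRNAs therefore share a partner and are not separate tests of it.

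linc-107 is a single-exon gene (24104267, II:7287417-7287813, minus strand). It had 3.29, 4.75, 4.69 and 1.78 CPM under curcumin, against 1.77, 1.4, 1.44 and 2.3 in the control. Curcumin 4 lay in the control range and the other curcumin libraries lay above it. It rose under curcumin with a log2 change of 1.06 (SE 0.29, adjusted p 0.0112 in edgeR), and the call was lost without curcumin 2 or curcumin 3 (adjusted p 0.0505 to 0.0536). It averaged 1.45 ± 0.17 CPM under sulforaphane and 2.85 ± 0.922 under the combination (SD, n = 4 each), with log2 changes of -0.24 and 0.72 that were not called (adjusted p 0.746 and 0.081). The combination change passed the threshold without curcumin 4 (adjusted p 0.043).

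The partner of linc-107, C30G12.2, lies 2612 bases away head to head and was far more abundant. It averaged 1666 ± 139.9 CPM under curcumin, 787 ± 137 under sulforaphane and 1151 ± 51.4 under the combination, against 999.7 ± 96.7 in the control (SD, n = 4 each). It rose under curcumin (log2 change 0.74, SE 0.10, adjusted p 3.13e-06 in edgeR) and fell under sulforaphane (-0.34, SE 0.10, adjusted p 0.0278), while its log2 change under the combination was 0.20 (adjusted p 0.141). The fall under sulforaphane was lost without any 1 of control 2, 3 or 4 and sulforaphane 1 or 4 (adjusted p 0.0658 to 0.129). The ratio of linc-107 to C30G12.2 differed from control by 0.25 (SE 0.35), 0.14 (SE 0.18) and 0.49 (SE 0.25) on the log2 scale under curcumin, sulforaphane and the combination, with exact permutation p of 0.514, 0.486 and 0.114.

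lep-5 (181411, X:12652591-12653520, minus strand, 3 exons) is the member with the best known role. It acts in the heterochronic pathway, which times development, and promotes the loss of the protein LIN-28 at the larva-to-adult change of the male tail tip. It had 157, 139.7, 128 and 137 CPM under curcumin, 107, 113, 102 and 107 under sulforaphane and 127, 130.1, 128 and 128 under the combination, against 122, 128, 128 and 114 in the control. The curcumin libraries lay at or above the highest control and the sulforaphane libraries below the lowest.

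The changes of lep-5 were small. It rose under curcumin with a log2 change of 0.20 (SE 0.06, adjusted p 0.0415 in edgeR). The call was lost without any 1 of 7 libraries (control 1, 2 or 4, curcumin 1, 2 or 4, sulforaphane 1; adjusted p 0.05 to 0.181) and when all genes with at least 1 read were tested. Under sulforaphane the log2 change was -0.19 (SE 0.06, adjusted p 0.0762), under the combination it was 0.06 (SE 0.06, adjusted p 0.538). The sulforaphane change passed the threshold with library size alone, with a replicate block and without curcumin 1 (adjusted p 0.0437). Its partner zmp-5, a zinc metalloprotease gene 1103 bases away, had 35 counts in all and was not tested.

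linc-46 (24105047, II:1990692-1991487, minus strand, 2 exons) had 5.24, 4.11, 6.43 and 4.36 CPM under the combination, against 3.98, 3.33, 3.31 and 3.06 in the control, with no overlap. It rose under the combination with a log2 change of 0.56 (SE 0.20, adjusted p 0.0472 in edgeR). That call was lost without any 1 of 11 libraries (control 2, 3 or 4, any curcumin library, sulforaphane 1 or 3, combination 1 or 3; adjusted p 0.0536 to 0.196), with library size alone and with both other count filters. Its log2 changes under curcumin and sulforaphane were 0.33 and -0.25, neither called. The partner math-44, a MATH-domain gene 156 bases away tail to tail, had log2 changes of 0.08, -0.28 and 0.12 for curcumin, sulforaphane and the combination, none of them called.

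linc-123 (24104949, V:15443826-15444354, minus strand) was called under the combination but lies under the 1 CPM set for naming, and is named because it was called. It had 8, 1, 5 and 6 counts under the combination, against 9, 15, 15 and 16 in the control, a log2 change of -1.43 (SE 0.51, adjusted p 0.0418 in edgeR). The CPM of the groups did not overlap. linc-123 met the count rule with 3 curcumin, 1 sulforaphane, 3 control and 0 combination libraries. The rule itself thus leaned towards values higher in the control than under the combination. The call was lost without any 1 of 9 libraries (control 2, 3 or 4, curcumin 2, sulforaphane 1 or 2, combination 2, 3 or 4; adjusted p 0.0501 to 0.134) and when all genes with at least 1 read were tested. The span of T26H5.11, which had 0 counts in every library, lies wholly inside linc-123 on the same strand. Reads from the shared span cannot be assigned to either gene by strand, so the counts of both are uncertain to that extent.

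**Figure D4:**
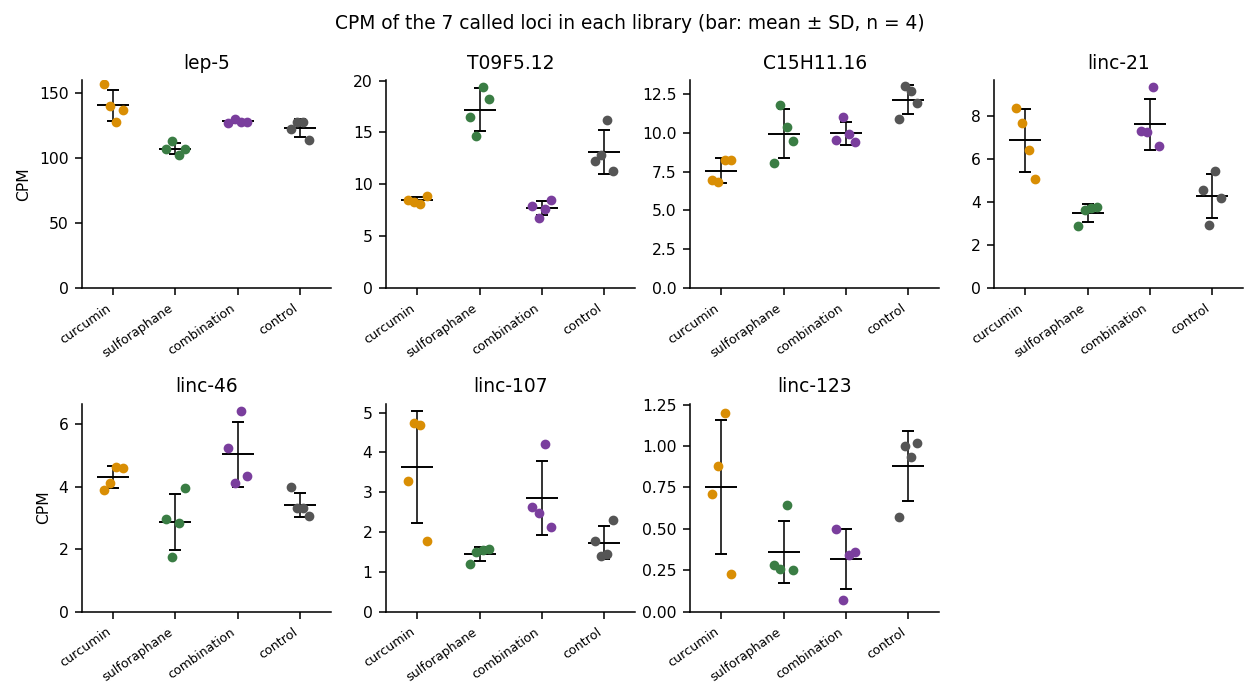
CPM of the 7 loci called in any comparison with control, 1 point per library, with the mean and SD of each group (n = 4) as bars and each axis starting at 0. T09F5.12 is low in all curcumin and combination libraries, at 6.79 to 8.85 CPM against 11.3 to 16.2 in the control.

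Of the most abundant loci, linc-15, linc-8 and ZK822.8 were not called in any comparison. linc-15 (24104337, X:11991484-11991933, minus strand) had 11.2, 12.5, 6.21 and 8.1 CPM under curcumin, 7.07, 7.07, 7.84 and 7.92 under sulforaphane and 7.17, 10.3, 11.6 and 7.26 under the combination, against 11.2, 9.66, 10.1 and 10.5 in the control. All sulforaphane libraries lay below all controls, with a log2 change of -0.47 (SE 0.18, adjusted p 0.13 in edgeR) that passed the threshold when all genes with at least 1 read were tested. linc-8 (24104682, II:2501838-2503802, minus strand) averaged 20 ± 1.98, 16.7 ± 2.7 and 19.8 ± 3.15 CPM under curcumin, sulforaphane and the combination, against 18.4 ± 0.672 in the control (SD, n = 4 each). Its log2 changes were 0.13, -0.14 and 0.11.

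ZK822.8 is an antisense RNA gene (13198378, IV:11918201-11920775, plus strand) wholly inside ZK822.1, and 170 of its 245 exonic bases lie in exons of that gene. It averaged 4.95 ± 1.18 CPM under curcumin, 4.91 ± 0.723 under sulforaphane and 4.44 ± 1.11 under the combination, against 4.96 ± 1.42 in the control (SD, n = 4 each). Its partner fell under the combination, to 5.13 ± 0.849 CPM against 10.6 ± 2.37 in the control, a log2 change of -1.05 (SE 0.18, adjusted p 6.83e-05 in edgeR). The log2 ratio of ZK822.8 to ZK822.1 was -0.02, -0.40, -0.16 and -0.32 under the combination, against -0.84, -1.37, -1.70 and -0.52 in the control. The difference of 0.88 (SE 0.28) had an exact permutation p of 0.0286, the smallest possible, and 0.1 after adjustment over 7 pairs. With that floor, the adjusted value could pass only if most of the 7 pairs reached the floor, so it decides little.

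The interaction contrast asked whether the change with both compounds differed from the sum of the separate log2 changes. It was called for 0.991% of all tested genes and for 0 members by edgeR. At an unadjusted p under 0.05 it gave 4 of 56 members, C15H11.16, T09F5.12, linc-22 and linc-30, against 9.05% of all tested genes. DESeq2 called 1 member, C15H11.16. For C15H11.16 the contrast was 0.68 (SE 0.17, adjusted p 0.0623 in edgeR). It passed the threshold with a replicate block and without sulforaphane 2 (adjusted p 0.0323). linc-22 is the longest member by exonic length. It averaged 24.7 ± 2.75, 22.5 ± 0.586 and 29.6 ± 4.34 CPM under curcumin, sulforaphane and the combination, against 24.8 ± 2.25 in the control (SD, n = 4 each). Its contrast was 0.40 (SE 0.14, adjusted p 0.277 in edgeR).

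The comparison with coding neighbours asked how each locus changed beside the nearest coding gene. The 56 loci have 53 distinct partners, of which 41 had enough counts to be tested, giving 44 pairs. The partners were called in 6 of 41 cases under curcumin (14.6%), 5 under sulforaphane (12.2%) and 13 under the combination (31.7%), against 14.6%, 6.71% and 23.1% of all tested genes. The log2 changes of locus and partner had the same sign in 25 of 44 pairs under curcumin, 25 under sulforaphane and 23 under the combination (56.8%, 56.8% and 52.3%). Across the 44 pairs, which share libraries and in 6 loci a partner, Pearson's r of the log2 changes was 0.28 under curcumin, 0.04 under sulforaphane and -0.05 under the combination.

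Among the 12 overlapping pairs with a tested partner, all antisense, the sign was shared in 6, 7 and 5 pairs for curcumin, sulforaphane and the combination. Among the 32 pairs that do not overlap it was shared in 19, 18 and 18. Both genes of a pair were called in 2 pairs under curcumin and in none under sulforaphane or the combination. The curcumin pairs were C15H11.16 with gnrr-2, called in opposite directions, and linc-107 with C30G12.2, both higher.

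**Figure D5:**
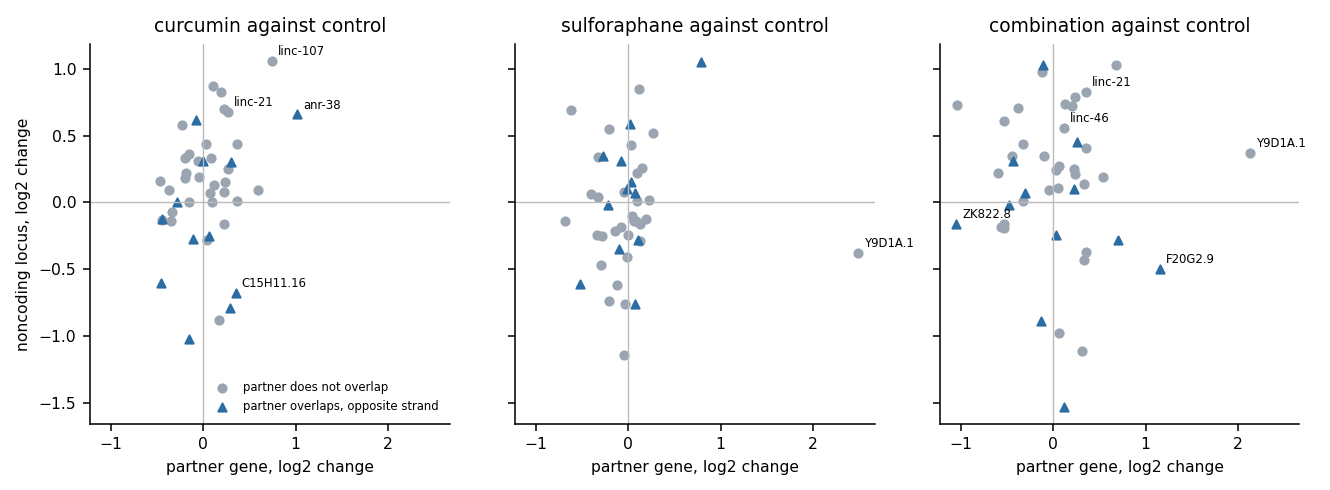
edgeR log2 change of each noncoding locus (vertical) over that of its partner gene (horizontal) in each comparison with control, for the 44 pairs with a tested partner; triangles are pairs that overlap on opposite strands. The points scatter over all 4 quadrants, with r across pairs of 0.28 under curcumin, 0.04 under sulforaphane and -0.05 under the combination.

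Some pairs were picked out after their values were seen, because the partner changed or the locus had a wide spread between groups. dhs-2, a short-chain dehydrogenase gene that contains anr-38 on the other strand, rose under curcumin (log2 change 1.02, SE 0.09, adjusted p 6.71e-09 in edgeR) and fell under sulforaphane (-0.52, SE 0.09, adjusted p 0.000563). Under the combination its log2 change was 0.26 (adjusted p 0.047), a call lost without any 1 of 10 libraries (control 2, 3 or 4, curcumin 2 or 3, sulforaphane 2 or 3, combination 1, 2 or 3, adjusted p 0.0531 to 0.171). anr-38 had log2 changes of 0.66, -0.61 and 0.45 under curcumin, sulforaphane and the combination, at 3 to 20 counts per library, and was not called. Its standard errors were 0.44, 0.50 and 0.45.

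anr-32 lies antisense to fos-1, the gene for a FOS-family transcription factor. It had 0.607, 1.15, 1.84 and 0.46 CPM under curcumin, 2.4, 2.92, 2.57 and 4.27 under sulforaphane and 0.749, 0.96, 0.745 and 1.88 under the combination, against 1.83, 1.4, 2.56 and 2.3 in the control. Every treated group overlapped the control. The log2 changes were -1.02, 0.59 and -0.89 (SE 0.37, 0.34 and 0.37), with edgeR adjusted p of 0.0729, 0.379 and 0.0914. The curcumin change passed the threshold with DESeq2, with all genes with at least 1 read, with a replicate block and without curcumin 3, and the combination change with all genes with at least 1 read and without combination 4. fos-1 itself had log2 changes of -0.15, 0.02 and -0.13, none of them called.

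F20G2.9, which lies inside F20G2.1 on the other strand, had 15, 13, 8 and 17 counts under sulforaphane, against 4, 7, 12 and 3 in the control. Its log2 change there was 1.05 (SE 0.54, adjusted p 0.307 in edgeR). Of the 4 libraries by which it met the count rule, 3 were sulforaphane libraries and 1 was a control. The rule itself thus favoured a high value under sulforaphane, and no conclusion is drawn from the rise. F20G2.1 rose under sulforaphane (0.79, SE 0.23, adjusted p 0.0362) and under the combination (1.16, SE 0.22, adjusted p 0.000325), where F20G2.9 had a log2 change of -0.50. The sulforaphane call of F20G2.1 was lost without any 1 of 6 libraries (control 1, 2 or 4, sulforaphane 1, 2 or 4, adjusted p 0.0531 to 0.115). Y9D1A.1, the locus farthest from its partner, had log2 changes of -0.38 and 0.37 under sulforaphane and the combination, neither called, while D1022.3 rose by 2.49 (SE 0.29, adjusted p 1.92e-06) and 2.13 (SE 0.30, adjusted p 4.79e-06).

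The remaining loci were not called in any comparison and make up the bulk of the set. Over all 56 the log2 changes ran from -1.02 to 1.06 under curcumin, from -1.27 to 1.05 under sulforaphane and from -1.53 to 1.03 under the combination. The lowest value under the combination belonged to anr-23, inside the pst-1 gene, and the highest under sulforaphane to F20G2.9, and both rest on fewer than 20 counts in nearly every library. linc-19, with a log2 change of -1.14 under sulforaphane (adjusted p 0.0591 in edgeR), had 0.566, 0.454, 0.385 and 0.692 CPM there, against 1.2, 0.8, 1.62 and 1.02 in the control, with no overlap. The replicate variance of the members' counts was 2.21 times the Poisson variance at the median, and under 1.5 times for 8 loci.

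Genes that act on antisense and noncoding transcripts were read from lists. Of 30 genes for double-stranded RNA handling and RNA interference, all tested, edgeR called 3 under curcumin, all lower, 1 under sulforaphane, higher, and 5 under the combination, all lower. Over all tested genes 14.6%, 6.71% and 23.1% were called in either direction, and 7.71%, 4.33% and 11% in the direction of those calls. The list's median log2 change was -0.103, -0.0411 and -0.0628 for curcumin, sulforaphane and the combination, against -0.0128, -0.0203 and -0.0212 over all tested genes. Of 9 genes for nonsense-mediated decay, which degrades transcripts with early stop codons, edgeR called 0 in each comparison. At an unadjusted p under 0.05, smg-6 alone passed, under curcumin (log2 change -0.22, adjusted p 0.151).

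sid-2, a membrane protein of the intestine that takes up double-stranded RNA from the gut, moved most. It fell to 39.3 ± 1.78 CPM under curcumin and 43 ± 1.59 under the combination and rose to 80.7 ± 3.78 under sulforaphane, against 65.1 ± 9.91 in the control (SD, n = 4 each). Its log2 changes were -0.72, 0.31 and -0.60 for curcumin, sulforaphane and the combination (SE 0.08 each, edgeR adjusted p 4.8e-07, 0.0185 and 4.88e-06). The sulforaphane call was lost without control 3 or 4 or sulforaphane 1 (adjusted p 0.0625 to 0.0707). Of the 3 intestinal markers, ges-1 averaged 106 ± 4.77, 199 ± 14.7 and 128 ± 7.5 CPM under curcumin, sulforaphane and the combination, against 189 ± 26.8 in the control. The marker elt-2 averaged 26.8 ± 3.97, 32.6 ± 1.3 and 23 ± 0.791 CPM under the same treatments, against 31.1 ± 2.73 in the control. The yolk protein gene vit-2 averaged 53557 ± 2097, 52223 ± 1186 and 57108 ± 5667 CPM, against 51932 ± 1111 in the control. The lower means of ges-1 and elt-2 under curcumin and the combination were thus not shared by vit-2, and the part of the intestinal markers in the sid-2 values was not tested.

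rde-12, a DEAD-box helicase of the RNA interference pathway, fell under curcumin (log2 change -0.23, SE 0.06, adjusted p 0.00518 in edgeR) and under the combination (-0.29, SE 0.06, adjusted p 0.000383). nrde-2, which acts in nuclear RNA interference, fell with both as well (-0.25 each, adjusted p 0.00776 and 0.00602). ego-1, an RNA-dependent RNA polymerase of the germline, fell under the combination (-0.45, SE 0.11, adjusted p 0.00313). mut-16, a scaffold of the perinuclear sites where small RNAs are amplified, fell under the combination as well (-0.21, SE 0.06, adjusted p 0.0105). When all genes with at least 1 read were tested, the curcumin call of rde-12 and the combination call of mut-16 were lost (adjusted p 0.056 and 0.0569). The germline markers given above were at 178 to 226 CPM in the combination group, against 219 to 263 in the control, and their part in the fall of ego-1 was not tested.

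Better known noncoding RNA genes of the worm, tts-1 and rncs-1, carry the biotype ncRNA in the table and are not members. tts-1, an RNA abundant in long-lived mutants, averaged 1066 ± 128 CPM under curcumin, 941 ± 64.2 under sulforaphane and 996 ± 103 under the combination, against 1079 ± 87.2 in the control (SD, n = 4 each), and was not called. rncs-1, a structured RNA that binds Dicer and inhibits it, averaged 33.6 ± 6.63, 19 ± 1.32 and 18.3 ± 2.86 CPM under curcumin, sulforaphane and the combination, against 24.7 ± 2.41 in the control (SD, n = 4 each). It rose under curcumin (log2 change 0.44, SE 0.12, adjusted p 0.0132 in edgeR) and fell under the combination (-0.43, SE 0.13, adjusted p 0.0142). Under sulforaphane the log2 change was -0.38 (SE 0.13, adjusted p 0.0777 in edgeR), which was not called. The sulforaphane libraries, at 17.3 to 20.1 CPM, lay below all controls, at 21.4 to 27, while those of the combination, at 14.8 to 21.7, overlapped them. The curcumin call was lost without curcumin 2 (adjusted p 0.0778) and the combination call without control 3 or combination 3 (adjusted p 0.0508 to 0.0522).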

How the data were processed

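PolyA RNA of 16 whole-worm libraries was sequenced, 4 per group. The authors deposited raw read counts per gene and FPKM values, both on WBcel235. HISAT2 2.0.5, StringTie 1.3.3b, featureCounts 1.5.0-p3 and DESeq2 1.20.0 are named, without roles, per the submitters' processing notes, and strandedness is not given in the sources used here. The deposited FPKM equalled the count divided by gene length and by 1 depth per library, which lay between 0.95 and 1.07 times the total count.

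Counts were tested in edgeR 4.0.16 (R 4.3.3), with genes kept by filterByExpr, TMM factors and 1 quasi-likelihood fit of 4 group means. Tests were two-sided, adjusted by Benjamini-Hochberg over 14328 genes and called at 0.05. The SE is the size of the log2 change divided by the square root of F. CPM use TMM-adjusted library sizes. Scripts were tested on simulated counts. No 2 libraries of the same group agreed within sampling noise. Exons came from the Ensembl 115 annotation. No genome or sequence table was used, so no sequences are shown.

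Named loci were the 5 largest called rises and falls per comparison at 1 CPM or more, the 3 largest per direction for the interaction, the 5 highest by FPKM, lep-5 among loci with a published role, and their partners. List genes were named where called. The loci, the partner rule and the lists were chosen with earlier results of these data known. The settings varied were the scaling (size factors of DESeq2, or library size alone), other count filters, the DESeq2 1.42.0 Wald test, a replicate block, a 2-fold condition, a member rule of 50 counts, 5 counts added in the ratios, and leaving out each library. The nearest tested partner was added after seeing the data.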

Additional observations from a re-analysis of the deposited data

Results flagged for a closer look

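In 40 groups of 4 libraries, those of the named loci, 2 had 1 library far from the others, and chance alone flags about 1 in 20 groups. linc-21 had 2.9 CPM in sulforaphane 1, apart from the other sulforaphane libraries at 3.63, 3.73 and 3.77. linc-123 had 0.642 CPM in sulforaphane 3, apart from 0.251, 0.26 and 0.283.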

How the results depend on the processing

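Numbers of called loci moved with some settings. A fold change of at least 2 left 1 locus under curcumin, 0 under sulforaphane and 1 under the combination. By their log2 changes these were linc-107 (1.06) under curcumin and linc-123 (-1.43) under the combination. With all genes with at least 1 read, 2 were called under sulforaphane. With at least 10 counts in every sample, 2 were called under the combination. DESeq2 called 1 locus in the interaction. Leaving out each library in turn gave 3 to 5 loci under curcumin, 0 to 2 under sulforaphane, 2 to 5 under the combination and 0 to 1 in the interaction. The replicate block gave 6, 2, 6 and 1 loci for curcumin, sulforaphane, the combination and the interaction. With at least 10 counts in every sample, 70.6% of pairs (12 of 17) shared a sign under the combination. RNA interference genes called under the combination numbered 8 with library size alone and 5 to 7 without single libraries, against 3 to 4 for curcumin and 0 to 1 for sulforaphane. For the decay list the replicate block called 1 gene under curcumin, and leaving out libraries gave 0 to 1 under the combination. The causes were not tested.

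Signs turned in comparisons in which the locus was not called. ZK822.8 under curcumin (log2 change 0.003) had -0.02 with library size alone, -0.0001 with the replicate block and -0.14 to 0.21 over the fits that left out 1 library. Under sulforaphane it had 0.01 with genes of at least 1 read, and -0.13 to 0.20 without single libraries, and under the combination -0.30 to 0.03. Without single libraries linc-15 ran from -0.27 to 0.03 and linc-123 from -0.55 to 0.07 under curcumin, and linc-8 from -0.0009 to 0.18 under the combination.

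The calls of T09F5.12 and C15H11.16 under curcumin and of T09F5.12 and linc-21 under the combination held in all 22 alternatives run on them. The 2-fold condition is not among these alternatives. The log2 changes of these calls, -0.64, -0.68, -0.77 and 0.83, fall short of it. Libraries with the same number correlated at a mean of 0.109 in their deviations from group means (0.00708 to 0.21, above 0.1 in 12 of 24 pairs), against -0.0364 for different numbers, and 14 of 16 libraries correlated best with their own number. That is a hint from the data, not the design. Counts per locus limit what could be detected.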
